A study of Mus musculus with 16 samples.

Results

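The comparison described here is that of fetal cortices whose mother had been exposed to ethanol with those whose mother had not. By the labels, 8 of the 16 libraries of the series belong to the exposed arm (4 maternal and 4 dual libraries) and the other 8 to the unexposed arm (4 control and 4 paternal libraries). Each arm held 4 male and 4 female libraries, and 4 libraries with an exposed and 4 with an unexposed father, so that mother exposure was balanced against sex and father exposure. The effect of the mother is given as a log2 fold change, exposed over unexposed, from a model in which father exposure and sex enter as additive terms.

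Total RNA of mouse cortex at gestational day 16 was sequenced in 8 groups of 2 libraries. Male and female fetuses each came from 4 backgrounds, in which neither parent (control), the father (paternal), the mother (maternal) or both parents (dual) had been exposed to ethanol. No strain, genotype, transgene, ethanol dose, exposure window or agent given to the controls is named in the labels used here. The labels also do not say whether the libraries of a group came from separate fetuses or litters, and p-values therefore speak only to the scatter among libraries as deposited, part of which may be technical.

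Ethanol taken by a pregnant mother crosses the placenta and reaches the fetal brain. Alcohol and aldehyde dehydrogenases are enzymes that oxidise ethanol to acetaldehyde and acetate, in the body as a whole. At this stage of mouse gestation radial glia of the ventricular zone and intermediate progenitors produce the neurons of the upper cortical layers, while microglia and blood vessels populate the cortical wall. Prenatal ethanol is known to disturb progenitor proliferation, neuronal migration and survival, and its effects are studied as a model of fetal alcohol spectrum disorders.

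Male libraries held 15336566 to 19966696 counts and female ones 26134287 to 35218456, so depth went with sex. The cortical genes Tbr1, Neurod2, Neurod6, Bcl11b and Emx1 were present in all 16 libraries, and the liver gene Alb stayed at or below 0.773 counts scaled to a common library total (CPM). The female dual libraries stood apart. In them 0.872% and 0.86% of counts fell on genes annotated as sense-intronic or as TEC, a class of models awaiting experimental proof, against 0.28% to 0.534% in the other 14 libraries. All CPM are scaled by the TMM factors of edgeR, and values of an arm are given as the lowest, the median and the highest of 8 libraries.

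In the model with father exposure and sex as additive terms, no gene passed edgeR's test for mother exposure. Of the 21543 genes tested, 0 (0%) passed a Benjamini-Hochberg adjusted p of 0.05 in the quasi-likelihood test. At an unadjusted p under 0.05 there were 1062 genes with higher values (4.93%) and 541 with lower values (2.51%), 1603 in all (7.44%), where 5% would be met by unchanged genes. DESeq2 called 3 genes higher (0.0139%) and 0 lower (0%). When the effect was taken instead as the average over the 8 group means, 163 genes were called higher (0.757%) and 5 lower (0.0232%), of which 122 were TEC or sense-intronic genes and 12 protein-coding. Among the 13927 genes with a mean log2 CPM of at least 1, the median size of the fold change, irrespective of sign, was 0.06 on the log2 scale.

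**Figure D1:**
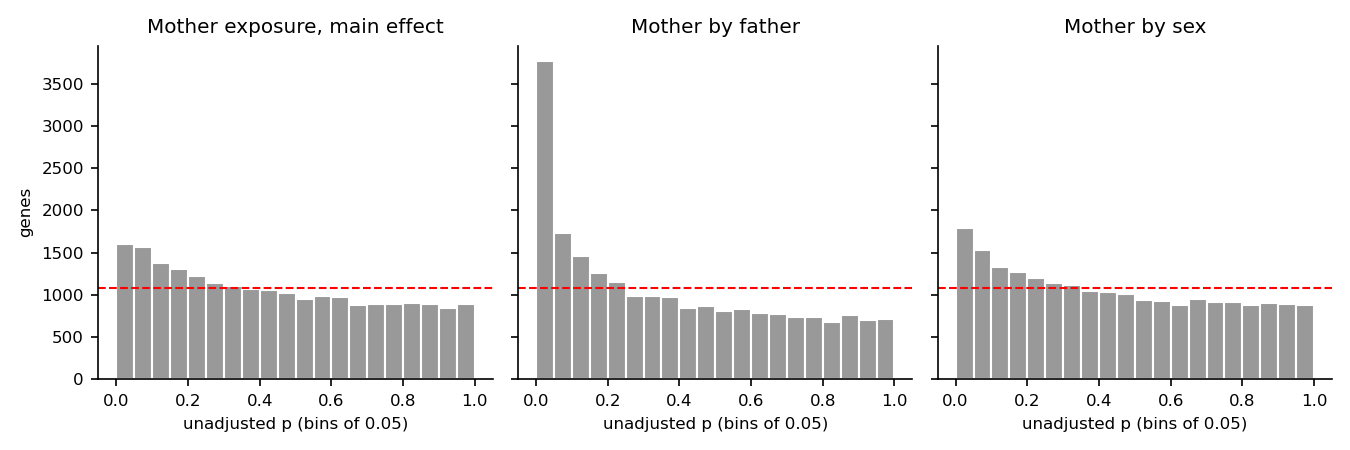
Numbers of genes (y axis) by unadjusted p (x axis, bins of 0.05) for the main effect of mother exposure and for its interactions with father exposure and with sex; the dashed line is the number per bin if no gene differed. The bin nearest 0 holds 1603 genes for the main effect, 3766 for mother by father and 1792 for mother by sex.

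The 3 genes that DESeq2 called, named for that call, were non-coding. They were the microRNA gene Mir6398 (adjusted p 0.00328), the TEC gene Gm37181 (0.0113) and the small Cajal body RNA gene Gm25395 (0.0287). The same genes had adjusted p-values of 0.128, 0.296 and 0.659 by edgeR. Gm37181 had 0.409, 0.75 and 0.977 CPM in the exposed arm and 0.0549, 0.164 and 0.451 CPM in the unexposed arm. Gm25395 had 2.53, 8.54 and 13.2 CPM in the exposed and 1.78, 4.76 and 6.85 CPM in the unexposed arm. The arms overlapped for both of these genes. Mir6398 reached the level asked by the filter on low counts, 0.434 CPM, in 6 exposed and 0 unexposed libraries. A difference was thus built into its selection, and its p-values are to be read with that limit. For Gm37181, which was also low, passage of the filter by arm was not counted.

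In 5 genes every library with an exposed mother had a higher CPM than every library with an unexposed one, which is 0.0232% of the genes tested, and in 0 genes was every exposed library lower. The 5 are Mir6398, Slfnl1, Stac3, Gm45293 and 1810034E14Rik. All had a mean log2 CPM under 1, so they were named after their values had been seen, and their signs in any subset of the libraries follow from that choice. The filter on low counts asked for 0.434 CPM in at least 2 libraries, before TMM scaling. Mir6398, Slfnl1 and 1810034E14Rik passed it only through the exposed arm, in 6, 5 and 7 libraries against 0 in the unexposed arm, so that a difference was built into their selection. Stac3 and Gm45293 reached it in 8 and 8 exposed and in 8 and 5 unexposed libraries. The log2 fold changes of the 5 genes were 2.30, 1.41, 0.56, 1.07 and 1.5, in the order given, without the female dual libraries.

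Mir6398 had the largest fold change of the 5 and is the only one of them that encodes a microRNA. MicroRNAs act by pairing their seed, bases 2 to 8 of the mature strand, with target messages. The mature and hairpin sequences are shown because the reads counted here derive from the locus as a whole, and total RNA libraries of this kind do not isolate mature microRNAs. They are from RefSeq (GRCm38.p6), with the hairpin at chr4:123616420-123616521 and the mature strand at chr4:123616493-123616513, both on the plus strand. In the mature sequence the capitals mark the seed, and in the hairpin they mark the mature stretch.
mmu-miR-6398: gUCAAUGAaccucagguaagg
Mir6398 hairpin: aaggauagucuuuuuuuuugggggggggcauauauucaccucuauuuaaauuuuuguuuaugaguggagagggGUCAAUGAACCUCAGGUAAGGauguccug
The mature strand is 21 bases long, and 0 other mature mouse microRNAs among the 1679 names in the table carry this seed.

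The microRNA locus gave few reads in any library. Mir6398 had 6 to 29 counts in the exposed libraries and 0 to 6 in the unexposed ones. This corresponds to 0.204, 0.611 and 1.09 CPM against 0, 0.114 and 0.165 CPM. The 4 dual libraries had 1.09, 0.612, 0.944 and 0.998 CPM (males, then females) and the 4 maternal libraries 0.61, 0.358, 0.441 and 0.204 CPM. Its log2 fold change was 2.54 ± 0.44 (standard error; edgeR adjusted p 0.128). By combination of sex and father exposure it was 2.54, 3.66, 1.25 and 3.04 (male unexposed father, male exposed father, female unexposed father, female exposed father), where the sign is fixed by the separation of the arms. Mir6398 lies within Macf1, on the opposite strand, and the strand setting of the counting is not given in the sources used here, so reads of Macf1 introns cannot be told apart from its own. Macf1, which links actin to microtubules, had a log2 fold change of 0.09 ± 0.05 (adjusted p 0.669).

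The protein-coding genes among the 5 were Slfnl1 and Stac3. Slfnl1, a gene related to the Schlafen family, had 0.382, 0.482 and 0.854 CPM in the exposed and 0.0744, 0.144 and 0.285 CPM in the unexposed arm, with a log2 fold change of 1.47 ± 0.35. These levels rest on 6 to 17 counts per exposed library and 1 to 9 per unexposed library. Stac3, known for its part in excitation-contraction coupling of skeletal muscle, had 1.28, 1.44 and 2.96 CPM against 0.596, 0.885 and 1.21 CPM, with a log2 fold change of 0.88 ± 0.23. The highest Stac3 values were those of the female dual libraries, at 2.41 and 2.96 CPM. Gm45293, a TEC gene within Fto, had 0.915, 1.03 and 1.6 CPM against 0.298, 0.431 and 0.832 CPM (log2 fold change 1.1 ± 0.25), and the antisense gene 1810034E14Rik, at Cdc14b, 0.383, 0.472 and 0.832 CPM against 0.0579, 0.16 and 0.381 CPM (1.41 ± 0.38). The host genes Fto and Cdc14b had log2 fold changes of -0.04 ± 0.04 and -0.12 ± 0.13. The edgeR adjusted p was 0.659 for each of these 4 genes.

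**Figure D2:**
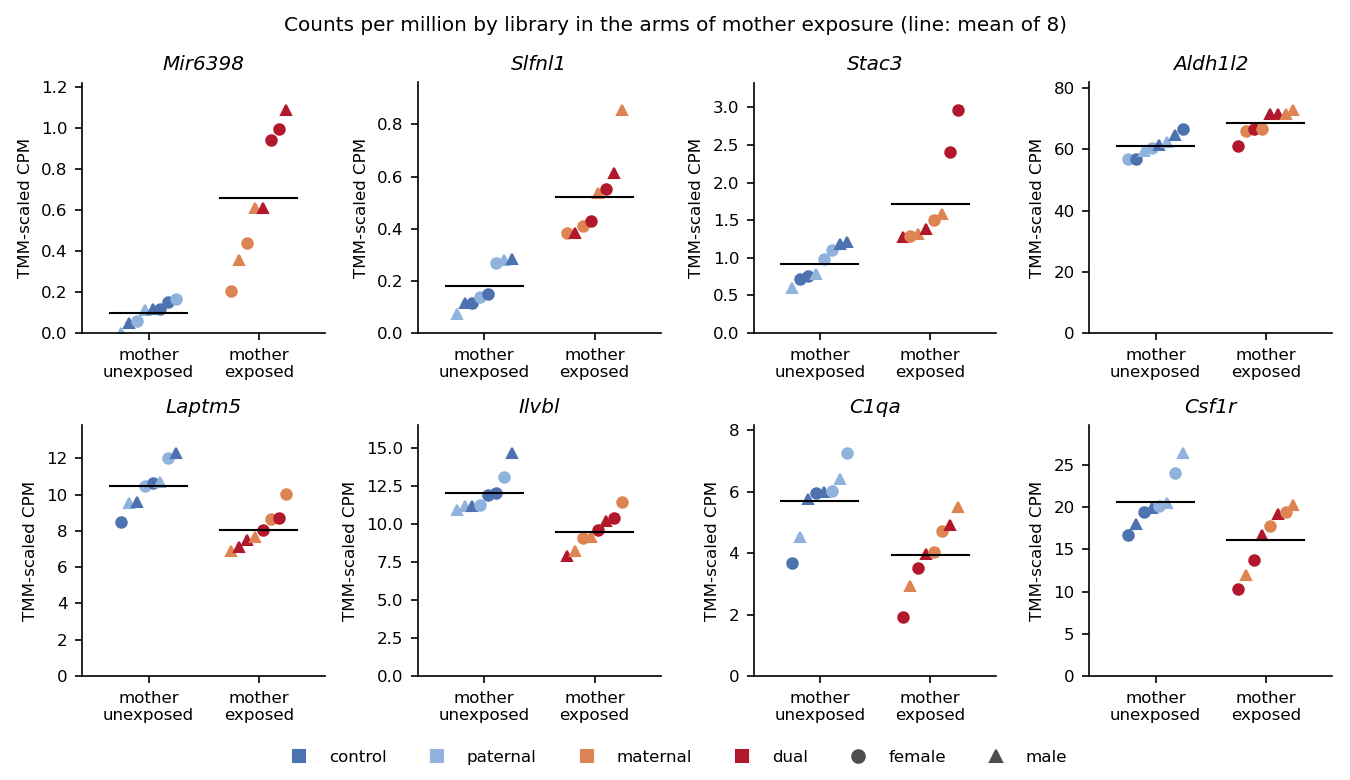
TMM-scaled CPM (y axis, linear from 0) in each of 16 libraries for 8 genes, by arm of mother exposure; colours give the parental background, symbols the sex, lines the mean of 8. Mir6398, Slfnl1 and Stac3 show no overlap between arms, whereas Aldh1l2, Laptm5, Ilvbl, C1qa and Csf1r overlap.

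Of the genes that averaged 1 or more on the log2 CPM scale and had 1 sign in all 4 combinations of sex and father exposure, 12 per direction are named by smallest p. Over all genes tested, at any level and any p, a common sign across the 4 combinations was seen for 1062 genes with higher values (4.93%) and 1150 with lower values (5.34%). None of the 24 passed edgeR's test.

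Xist, the non-coding RNA that coats the inactive X chromosome of female cells, had the smallest p. In the female libraries it had 503 and 594 CPM in controls, 682 and 758 CPM with paternal, 815 and 731 CPM with maternal, and 1641 and 1671 CPM with dual exposure. The female dual libraries thus held more than any other, and the female arms overlapped, since the higher paternal value lies above the lower maternal one. The log2 fold change was 0.93 ± 0.15 in the additive model (adjusted p 0.113), and 0.85 ± 0.11 within females (adjusted p 0.000685 by edgeR in a fit of 8 group means). In males Xist had 0 to 26 counts per library, so its ratio there rests on background counts. Without the female dual libraries the log2 fold change was 0.67.

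The other genes with higher values were mostly small in effect. Aldh1l2, a mitochondrial folate enzyme that oxidises formyltetrahydrofolate, had 61.1, 69.1 and 72.7 CPM in the exposed and 56.8, 60.8 and 66.7 CPM in the unexposed arm (0.16 ± 0.04). The arms overlapped, and the gene overlaps D10Wsu102e on the opposite strand, a gene described further on. Slc16a4, a member of the monocarboxylate transporter family, had 5.32, 7.82 and 11.6 CPM against 3.95, 5.79 and 7.77 CPM (0.57 ± 0.15). With an unexposed father its log2 fold change was 0.06 in males and 0.33 in females, and with an exposed father 0.89 and 0.98. Adam8, a membrane metalloprotease, had 3.21, 3.90 and 6.77 CPM against 2.87, 3.03 and 3.51 CPM (0.53 ± 0.15). Impg2, a proteoglycan of the matrix around photoreceptors, had 2.19, 3.06 and 3.89 CPM against 1.70, 1.99 and 2.59 CPM (0.52 ± 0.15).

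The remaining genes with higher values also overlapped between arms. Thoc1, a subunit of the THO complex of messenger RNA export, had a log2 fold change of 0.20 ± 0.06, Trmt11, a transfer RNA methyltransferase subunit, 0.27 ± 0.08, and Ascc3, a helicase that acts on stalled ribosomes and in DNA repair, 0.13 ± 0.04. Zc3h7a, a zinc finger protein, had 0.21 ± 0.06, Dgki, the iota diacylglycerol kinase, 0.17 ± 0.05, and Aasdh, an acyl-CoA synthetase family member, 0.21 ± 0.06. Rny3, a Y RNA bound by the Ro protein, had 6.68, 49.4 and 81.3 CPM in the exposed and 5.13, 16.5 and 62.7 CPM in the unexposed arm, and its log2 fold change of 0.92 ± 0.30 was 2.35 in females with an exposed father and 0.12 to 0.38 in the other 3 combinations. Without the female dual libraries the log2 fold change of Rny3 was 0.29. The adjusted p of all these genes was 0.659.

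Among the genes with lower values, Laptm5, a lysosomal membrane protein of blood-derived cells and microglia, had the smallest p. It had 6.89, 7.85 and 10.03 CPM in the exposed and 8.51, 10.6 and 12.3 CPM in the unexposed arm (-0.37 ± 0.09). Ilvbl, an acetolactate synthase-like enzyme, had 7.89, 9.37 and 11.4 CPM against 10.9, 11.6 and 14.6 CPM (-0.34 ± 0.09), so that a single female maternal library reached into the range of the unexposed arm. Tmed3, a cargo receptor between endoplasmic reticulum and Golgi, had 9.38, 10.9 and 13.2 CPM against 12.5, 13.5 and 15.1 CPM (-0.30 ± 0.08). Unlike Xist and Rny3, Laptm5 and Ilvbl had much the same log2 fold change without the female dual libraries, at -0.37 and -0.36. Both genes had been chosen for a small p and a common sign in every combination of sex and father exposure. Most libraries behind that choice remain in this fit, so the lasting difference follows in part from the choice. Values without the female dual libraries are not given here for the other genes with lower values.

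The other genes with lower values had differences of like size. Cbln2, a secreted organiser of synapses, had 20.8, 22.5 and 28.5 CPM against 24.2, 27.3 and 28.8 CPM (-0.22 ± 0.06), Diras2, a small GTPase, -0.25 ± 0.07 and Smpd1, the lysosomal acid sphingomyelinase, -0.20 ± 0.06. Lsm4, a subunit of the ring that binds U6 RNA, had -0.29 ± 0.08, Lhpp, a phosphohistidine phosphatase, -0.32 ± 0.09, Mgrn1, a ubiquitin ligase, -0.15 ± 0.04, and Wdr6, a WD repeat protein, -0.16 ± 0.04. Rwdd2b (-0.36 ± 0.09) and Dnajc27, a J-domain GTPase (-0.19 ± 0.05), complete the 12. All had an adjusted p of 0.659.

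Lists of genes for cell types and pathways were then read for the main effect. Of 45 lists, 0 had a member that passed edgeR's test, so that counts of positive and negative values and the median log2 fold change are given as a description, beside a median of -0.00 and 10767 positive and 10776 negative values over all genes tested. Medians by combination of sex and father exposure are plotted for all lists.

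**Figure D3:**
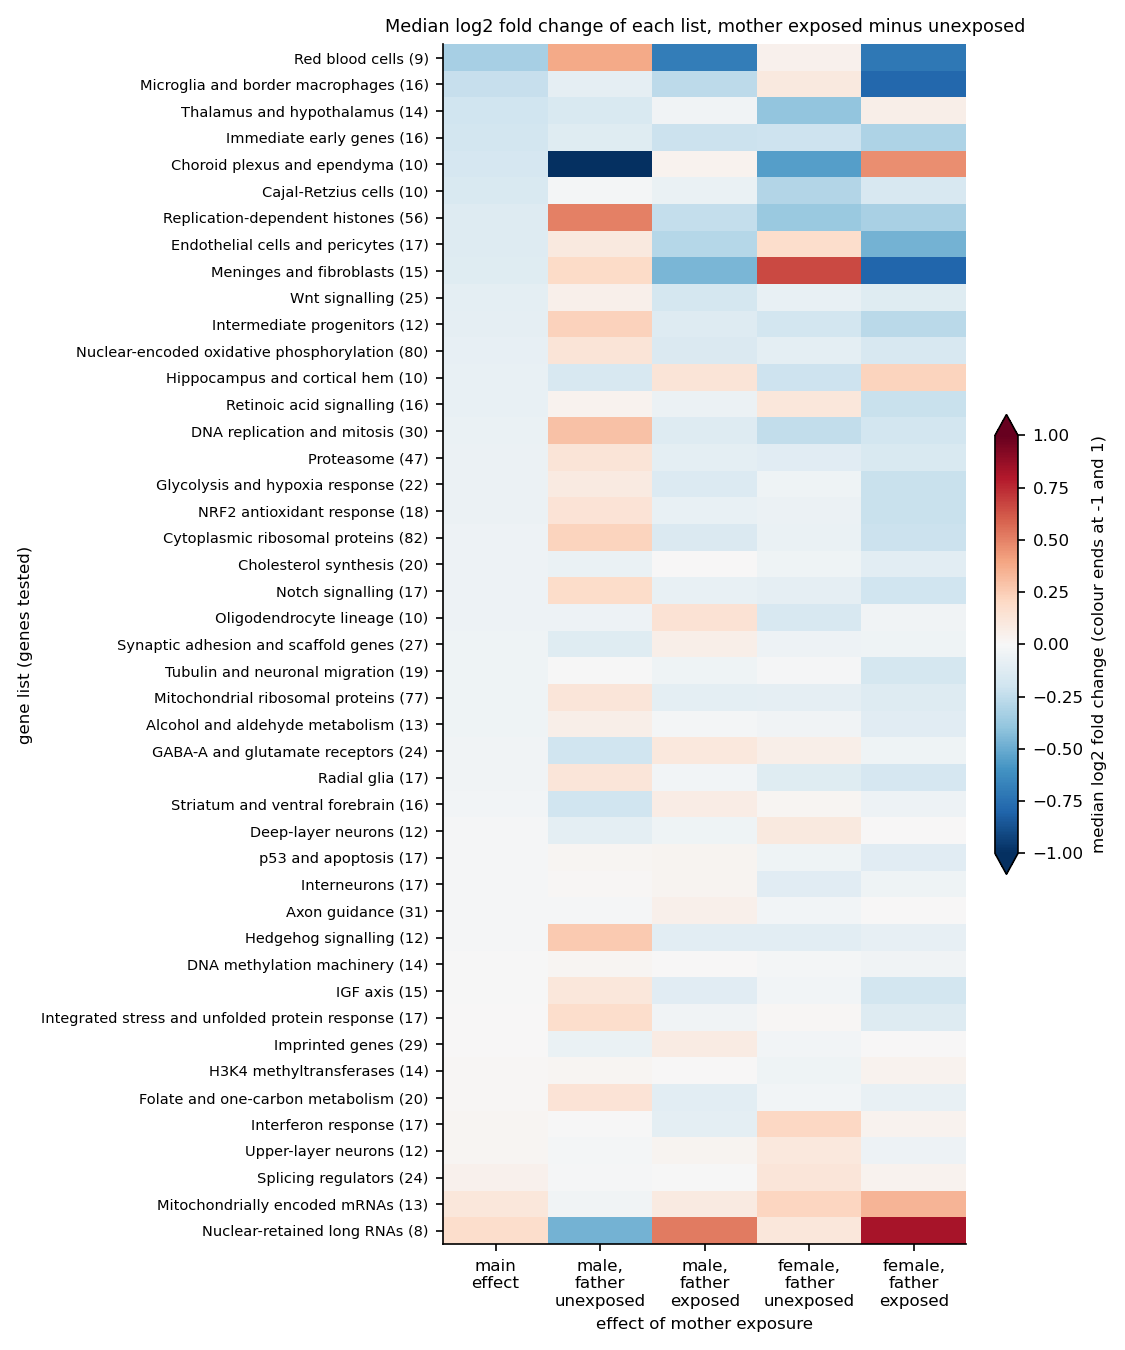
Median log2 fold change (colour) of 45 gene lists (y axis, number of genes tested in parentheses) for the main effect of mother exposure and for each combination of sex and father exposure (x axis). The main-effect column is pale throughout, from -0.33 for red blood cell genes to 0.18 for nuclear-retained long RNAs, while single combinations reach further in both directions.

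Several lists of the neuronal lineage had medians near 0. These were -0.03 for 17 radial glia genes, -0.01 for 12 deep-layer genes, 0.02 for 12 upper-layer genes and -0.01 for 17 interneuron genes. Intermediate progenitor genes had a median of -0.09 with 11 of 12 values negative, but it was 0.02 without the female dual libraries, -0.02 without the female control libraries and -0.15 to 0.01 without single libraries. Among them Hes6, a bHLH factor that promotes neuronal differentiation, had 28.0, 34.1 and 39.2 CPM in the exposed and 33.8, 36.3 and 45.4 CPM in the unexposed arm (-0.16 ± 0.06, unadjusted p 0.022 by edgeR). The proneural gene Neurog1 had -0.87 ± 0.38 at 0.153 to 2.17 CPM. Cajal-Retzius cells, the early neurons of the marginal zone, had a median of -0.16 with 9 of 10 values negative, led by Calb2 (-0.28 ± 0.12) and Ebf3 (-0.24 ± 0.11). Neither gene's arms were separate, with Calb2 at 9.96 to 13.9 CPM in the exposed and 11.6 to 23.4 CPM in the unexposed arm.

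Genes of microglia, vessels and blood had negative medians. For microglia and border macrophages 13 of 16 values were negative, with a median of -0.23 and a summed level of 69 to 130.3 CPM in the exposed and 72.9 to 154 CPM in the unexposed arm. C1qa, a subunit of the complement starter C1q, had 1.93, 4.0 and 5.49 CPM against 3.68, 5.98 and 7.24 CPM (-0.55 ± 0.18), and Csf1r, the receptor on which microglia depend, 10.3, 17.2 and 20.2 CPM against 16.7, 20.04 and 26.4 CPM (-0.35 ± 0.13). The lysosomal protease gene Ctss, named after its values were seen, had -0.32 ± 0.15. The adjusted p by edgeR was 0.659 for C1qa and Csf1r. The median of the list was -0.06 without the female dual libraries. In bulk RNA fewer cells of a type and less RNA per cell cannot be told apart.

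In the endothelial and pericyte list 17 of 17 values were negative, with a median of -0.13. The endothelial receptor gene Tie1 had 10.6, 16 and 19.7 CPM in the exposed and 15.5, 17.7 and 21.5 CPM in the unexposed arm (-0.27 ± 0.09). The summed level of the list was 427 to 651 CPM and 444 to 647 CPM in the respective arms, so the arms overlapped almost wholly, and without the female dual libraries the median was -0.02. Red blood cell genes had a median of -0.33 (8 of 9 negative), or -0.14 without the female dual libraries, with the alpha-globin gene Hba-a1 at 84.8, 112 and 168 CPM against 83.5, 147 and 216 CPM (-0.33 ± 0.16). Hba-a1 has a near-identical copy, so its counts are uncertain.

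Marker genes of tissues that border the cortex were also read. The 14 thalamus and hypothalamus genes had a median of -0.20 with 11 negative, among them the hypothalamic transcription factor genes Otp (1.55, 2.87 and 4.0 CPM against 2.19, 4.51 and 7.85 CPM, -0.66 ± 0.21) and Sim1 (-0.46 ± 0.20). The highest value in the list was 0.46. Its summed level was 205 to 248 CPM in the exposed and 201 to 281 CPM in the unexposed arm, so the arms overlapped. Without the female control libraries the median of the list was -0.06. Ttr, the transport protein that fills the choroid plexus, had 0.526, 1.29 and 156 CPM in the exposed and 0.181, 18.4 and 118 CPM in the unexposed arm. In the exposed arm the value of 156 CPM was that of 1 library, with the next at 3.84 CPM, whereas several unexposed libraries had raised values. The log2 fold change of Ttr was -4.18 to -1.23 when single libraries were left out. The 10 genes of choroid plexus and ependyma had a median of -0.17 with 9 negative, and of -0.40 without the female dual libraries. The part of such markers, or of dissection, in the results was not tested.

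The genes that handle ethanol were close to the median of all genes. Of 13 tested genes of alcohol and aldehyde metabolism 10 had negative values, with a median of -0.04. Aldh2, the mitochondrial enzyme that clears acetaldehyde, had 37.7, 42.4 and 45.7 CPM in the exposed and 40.6, 46.2 and 52.6 CPM in the unexposed arm (-0.10 ± 0.05, adjusted p 0.669 by edgeR). Adh5, the class of alcohol dehydrogenase expressed in most tissues, had 81.5, 89.6 and 103 CPM against 84.5, 94.7 and 107 CPM (-0.07 ± 0.05). Medians were likewise near 0 for p53 and apoptosis genes (-0.01), the unfolded protein response (0.00), DNA methylation enzymes (-0.00), folate and one-carbon genes (0.01) and Hedgehog signalling (-0.01). In the one-carbon list Ahcy, which hydrolyses S-adenosylhomocysteine, had 27.6, 33.9 and 36.1 CPM against 34.0, 37.8 and 44.6 CPM (-0.21 ± 0.07). Retinoic acid genes had a median of -0.07 (14 of 16 negative), NRF2 antioxidant genes -0.06 (15 of 18 negative) and glycolysis and hypoxia genes -0.06 (17 of 22 negative). These 3 medians were -0.00, 0.01 and -0.02 without the female dual libraries, and that of alcohol and aldehyde metabolism was then 0.00. The last of the 3 lists includes the stress-induced mTOR inhibitor gene Ddit4, at -0.15 ± 0.05.

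Large families of housekeeping genes had small negative medians. Negative values were found for 70 of 82 cytoplasmic ribosomal protein genes (median -0.05), 72 of 80 nuclear genes of oxidative phosphorylation (-0.08), 44 of 47 proteasome genes (-0.06), 55 of 77 mitochondrial ribosomal genes (-0.04) and 52 of 56 replication-dependent histone genes (-0.13). Examples are Atp5d of the ATP synthase (-0.17 ± 0.06), the proteasome genes Psmb2 (-0.15 ± 0.06) and Psmb5 (-0.15 ± 0.07), Mrps24 (-0.24 ± 0.08), the histone gene Hist3h2ba (-0.19 ± 0.08) and Rps14 (-0.21 ± 0.10). Ribosomal protein genes have many processed copies, so counts of single members are uncertain. Protein-coding genes as a class had a median of -0.02, with 9225 of 15009 negative. Without the female dual libraries the medians were 0.01 for the cytoplasmic ribosomal, -0.03 for the oxidative phosphorylation, -0.02 for the proteasome, -0.01 for the mitochondrial ribosomal and -0.02 for the histone list. The histone median was 0.01 without the female control libraries and -0.21 to 0.01 without single libraries.

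The 13 messages encoded by mitochondrial DNA went the other way, with 11 positive values and a median of 0.11, or 0.05 without the female dual libraries. The complex I genes mt-Nd6 (122, 213 and 349 CPM against 73.4, 191 and 340 CPM, 0.31 ± 0.11) and mt-Nd2 (0.25 ± 0.11) led the list, and their arms overlapped. Among genes of neuronal activity 15 of 16 immediate early genes had negative values, with a median of -0.19, or -0.21 without the female dual libraries. Egr1, a transcription factor induced by neuronal firing, had 4.56, 5.50 and 6.72 CPM in the exposed and 4.17, 7.0 and 9.61 CPM in the unexposed arm (-0.38 ± 0.15). The phosphatase gene Dusp1 (-0.18 ± 0.08) and the AP-1 gene Fosl2 (-0.21 ± 0.10) had the same sign. Of the synaptic genes, Slc17a7, the vesicular glutamate transporter, had -0.21 ± 0.07 and Cbln1 -0.25 ± 0.08, in a list with a median of -0.05. Tubb2a, a neuronal tubulin gene, had -0.11 ± 0.05.

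Values of splicing and nuclear RNA genes were mostly positive, and those of H3K4 methylation genes were mixed. Among 14 genes of H3K4 methylation 8 had positive and 6 negative values, with a median of 0.01. The large methyltransferase genes Kmt2c (432, 461 and 494 CPM against 391, 424 and 458 CPM, 0.12 ± 0.04), Kmt2a (0.11 ± 0.05) and Kmt2d (0.11 ± 0.05) were highest. Of 24 splicing regulators 19 were positive, with Luc7l2, a component associated with the U1 particle, at 0.18 ± 0.07. All 8 nuclear-retained long RNAs, Xist among them, had positive values, with a median of 0.18. Malat1, the abundant RNA of nuclear speckles, had 3237, 3783 and 5847 CPM in the exposed and 2704, 3432 and 5042 CPM in the unexposed arm (0.22 ± 0.13). Without the female dual libraries the median of this list was -0.06.

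By gene class the values were uneven. TEC and sense-intronic genes had a median log2 fold change of 0.47 with 1840 of 2041 positive, antisense RNA genes 0.26 with 959 of 1276 positive, small nucleolar and Cajal body RNA genes 0.28 with 25 of 127 negative, and long intergenic RNA genes 0.08 with 468 of 764 positive. The TEC median was -0.43 and 0.50 in males with an unexposed and an exposed father, and 0.19 and 1.47 in females. The share of counts on these genes was 0.513% ± 0.223 (SD, n = 8) in the exposed and 0.373% ± 0.0783 in the unexposed arm, and the arms were not told apart by an exact permutation test within sex and father exposure (two-sided p 0.128, adjusted p 0.353 over 7 measures, with 0.00154 the smallest p possible). The difference of 0.14 percentage points was 0.0125 when the female dual and the female paternal libraries were both left out. Mitochondrial messages took 1.26% ± 0.231 and 1.15% ± 0.0737 (exact p 0.151). Their difference of 0.112 points was 0.0391 without the female dual and female paternal libraries. The summed count, 23212700 on average in the exposed and 25666300 in the unexposed arm, had an exact p of 0.0231 and an adjusted p of 0.162.

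**Figure D4:**
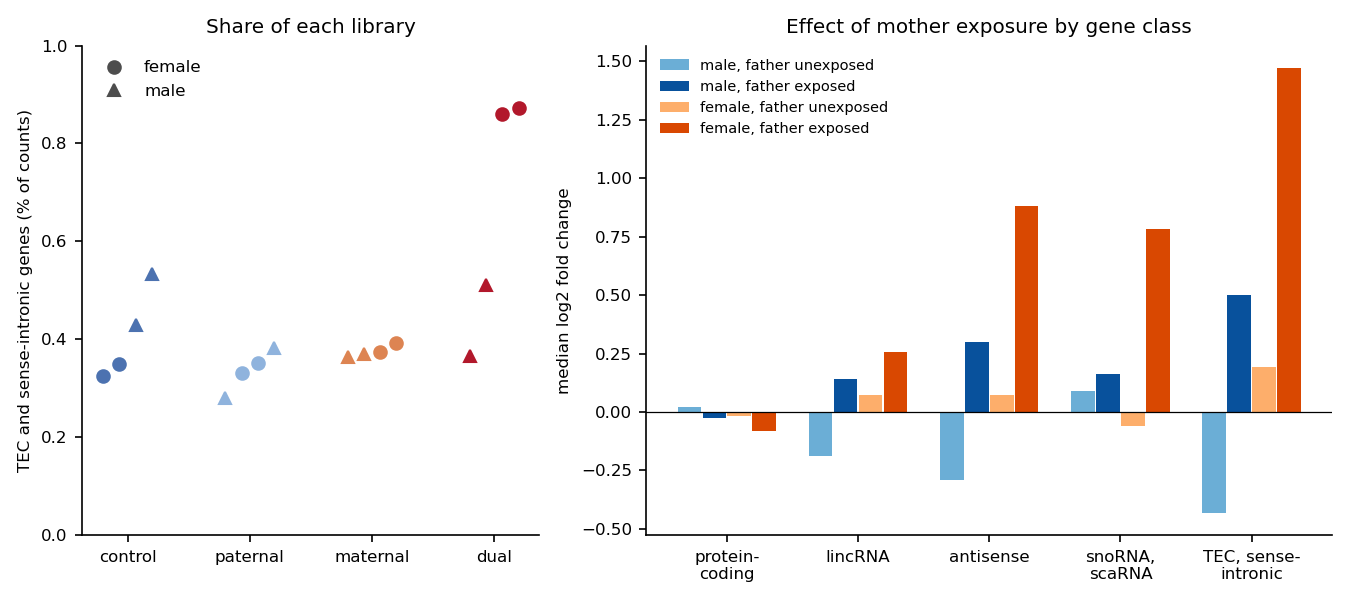
Left, share of counts on TEC and sense-intronic genes (y axis, percent) by parental background (x axis), 1 point per library; right, median log2 fold change for mother exposure by gene class (x axis), 1 bar per combination of sex and father exposure. The female dual libraries lie at 0.872% and 0.86%, and the bars of females with an exposed father reach 1.47 for TEC and sense-intronic genes and -0.08 for protein-coding genes.

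The effect of mother exposure differed with father exposure in 409 genes (1.9%) by edgeR, 346 with a more positive effect when the father was also exposed (1.61%) and 63 with a more negative one (0.292%), while 3766 were met at an unadjusted p under 0.05 (17.5%). Of the 409, 223 were TEC or sense-intronic genes, which make up 54.5% of the calls and 9.47% of the genes tested, 98 were protein-coding, 37 antisense and 17 long intergenic. Leaving out single libraries gave 0 to 1857 calls, with 0 when female paternal replicate 1 or 2, female dual replicate 1 or 2 or female maternal replicate 1 was left out, and 1857 without female control replicate 1. It was 55 to 184 when a male control library, a male maternal library, replicate 1 of the male paternal or replicate 2 of the female maternal group was left out, 735 without female control replicate 2 and 1066 without male dual replicate 2. The count was 0 without both female dual libraries, 0 with the TEC and sense-intronic share as a covariate and 0 among protein-coding genes alone. The coding genes of smallest p, 5 per direction, are described next. Their adjusted p-values were 0.02 to 0.0241 over all genes, and 0.0592 to 0.0946 among coding genes alone. These genes were chosen on the values of the same libraries, so a separation of dual from paternal libraries follows in part from that choice. The share of all genes with such a separation was not counted.

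Lrtm1, a leucine-rich repeat transmembrane protein, had the largest difference of the 10. Its values were 2.24, 4.78, 1.66 and 2.49 CPM in controls (male replicates 1 and 2, then female 1 and 2) and 1.71, 1.97, 1.38 and 1.67 CPM with maternal exposure. With an exposed father they were 1.56, 1.52, 1.56 and 1.55 CPM in paternal and 4.03, 3.52, 4.62 and 5.31 CPM in dual libraries. All dual libraries thus exceeded all paternal ones, whereas control and maternal libraries overlapped. The effect of the mother was -0.68 ± 0.24 with an unexposed and 1.48 ± 0.24 with an exposed father, a difference of 2.21 ± 0.37 (adjusted p 0.02 by edgeR).

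The other 4 genes with a positive difference were D10Wsu102e, Lrrc7, Copg2 and Pcdhgb5. D10Wsu102e had 308, 370, 287 and 295 CPM in control, 307, 265, 304 and 326 CPM in maternal, 207, 279, 234 and 221 CPM in paternal and 396, 327, 471 and 478 CPM in dual libraries. It was higher in all dual than in all paternal libraries, with effects of -0.07 ± 0.09 and 0.82 ± 0.09. The difference was 0.90 ± 0.16, and 0.65 without the female dual libraries. For Lrrc7, a scaffold protein of the postsynaptic density, the effects were -0.13 ± 0.06 and 0.52 ± 0.06, and for Copg2, a coatomer subunit, -0.15 ± 0.05 and 0.25 ± 0.05. Pcdhgb5, a clustered gamma protocadherin that shares exons with its neighbours and is uncertain for that reason, had effects of -0.41 ± 0.10 and 0.57 ± 0.10.

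The 5 genes with a negative difference included binding proteins of insulin-like growth factors. Igfbp2 had 75.6, 65.3, 67.3 and 78.0 CPM in control and 81.5, 79.7, 75.8 and 78.6 CPM in maternal libraries. It had 92.8, 77.0, 86.7 and 81.0 CPM in paternal and 58.0, 66.3, 64.2 and 63.6 CPM in dual libraries. All 4 dual libraries lay below all 4 paternal ones, with effects of 0.14 ± 0.07 and -0.42 ± 0.07 for an unexposed and an exposed father and a difference of -0.56 ± 0.10. The difference was -0.59 without the female dual libraries. Igfbp4, another of these binding proteins, had effects of 0.19 ± 0.08 and -0.41 ± 0.08. Shc1, an adaptor of receptor tyrosine kinases, had 0.23 ± 0.10 and -0.59 ± 0.10. Lgals1, a galectin rich in meninges and vessels, had 0.31 ± 0.16 and -0.89 ± 0.16.

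Hbb-bs, an adult beta-globin gene with a near-identical copy, had the largest negative difference, -1.36 ± 0.26. It had 402, 423, 289 and 355 CPM in control, 606, 501, 369 and 322 CPM in maternal, 302, 735, 530 and 436 CPM in paternal and 319, 308, 169 and 181 CPM in dual libraries. The paternal and dual arms overlapped through a male paternal library. Medians of marker lists for other cells and tissues also differed by father exposure, in both directions. With an unexposed and an exposed father, the median effect was 0.15 and -0.75 for red blood cell, 0.41 and -0.63 for meningeal and fibroblast, 0.09 and -0.39 for endothelial and pericyte, and 0.07 and -0.52 for microglial genes. Other lists went from negative to positive. The values were -0.61 and 0.10 for choroid plexus and ependyma and -0.26 and 0.19 for hippocampus and cortical hem. They were -0.22 and 0.01 for thalamus and hypothalamus and -0.11 and 0.05 for the oligodendrocyte lineage. Among the controls, female control replicate 1 was lowest in summed level. It had 469 CPM for meningeal and fibroblast genes, against 875 to 1020 CPM in the other controls. For endothelial and pericyte genes it had 444 against 576 to 647 CPM, and for microglial genes 72.9 against 106 to 126 CPM. The main-effect median of the meningeal list was 0.01 without the female dual and -0.38 without the female control libraries. The part of these markers in the results for single genes was not tested.

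**Figure D5:**
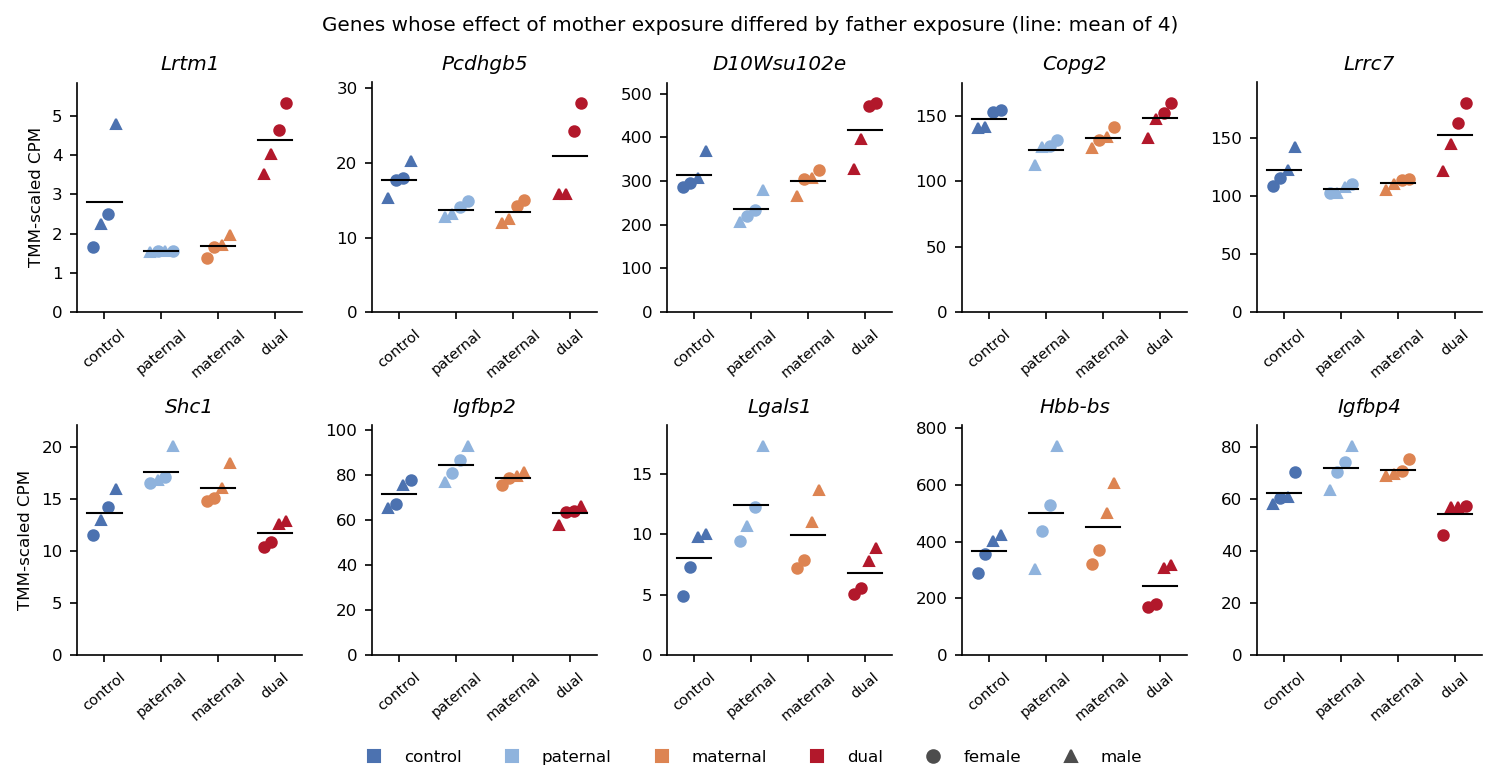
TMM-scaled CPM (y axis, linear from 0) of 10 genes in each library by parental background (x axis); symbols give the sex and lines the mean of 4 libraries. In the upper row the dual libraries lie above the paternal ones, and in the lower row below them, with an overlap in Hbb-bs.

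Fits of the 8 group means showed where the effect of the mother passed the test. With an unexposed father, that is maternal against control libraries, 0 genes passed (817 at an unadjusted p under 0.05, 3.79%). With an exposed father, dual against paternal libraries, 1432 genes rose (6.65%) and 466 fell (2.16%). In females 853 rose (3.96%) and 120 fell (0.557%), and in males 0 passed (859 unadjusted, 3.99%). Fitted to the female libraries alone, the comparison gave 0 calls. By combination, calls were made only in females with an exposed father, 1663 higher (7.72%) and 463 lower (2.15%), while the other 3 combinations each had 0. Without the female dual libraries the comparison with an exposed father is that of male libraries alone, with 0 calls. With protein-coding genes alone, the counts were 157 higher (1.04%) and 51 lower (0.339%) with an exposed father, and 32 higher (0.213%) and 0 lower (0%) in females. The balance of coding calls with an exposed father thus turned between the fits, since 231 coding genes were higher and 458 lower in the fit of all genes. The fits differ in scaling, in the genes entered, in the estimated spread and in the adjustment of p. The part of each was not tested.

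Several named families had members that fell in dual against paternal libraries. Among 82 cytoplasmic ribosomal protein genes 33 fell and 0 rose, with a median of -0.17, and among 80 nuclear oxidative phosphorylation genes 17 fell and 0 rose (-0.16), against 2.16% of all genes that fell. Fitted on protein-coding genes alone, 12 of the 82 and 3 of the 80 fell, against 0.339% of those genes, with medians of -0.12 and -0.11. Rps14 fell by 0.49 (adjusted p 0.00085 by edgeR) and Atp5d by 0.33 (0.0019), both on the log2 scale, and the adjusted p was 0.0181 and 0.0254 among coding genes alone. Of 17 endothelial and pericyte genes 8 fell, of 16 microglial genes 4, among them Csf1r (-0.63) and C1qa (-0.79), and of 47 proteasome genes 6. Among coding genes alone these counts were 1, 0 and 1, with an adjusted p of 0.0674 for Csf1r and 0.136 for C1qa. Malat1 rose by 0.47 and Kmt2a by 0.26, and 5 of 8 nuclear-retained long RNAs and 3 of 14 H3K4 genes rose, against 6.65% of all genes that rose. The shares over all genes mix unlike classes. Of 15009 protein-coding genes 231 rose and 458 fell. Among long intergenic RNA genes 66 of 764 rose, and among TEC and sense-intronic genes 782 of 2041. TEC and sense-intronic genes made up 783 of the 1898 calls. With an unexposed father the medians of the ribosomal and oxidative phosphorylation lists were 0.07 and 0.01. Comparisons with an exposed father rest on the female dual libraries in part, and this contribution cannot be told apart from that of dual exposure in females.

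Whether mother exposure acted differently in male and female fetuses was tested as an interaction. No gene passed edgeR's test (0 of 21543, 0%), with 1792 at an unadjusted p under 0.05 (8.32%), and DESeq2 called 0. Within libraries of exposed fathers, female minus male effects also gave 0 calls (1804 unadjusted, 8.37%), so the calls in females and their absence in males were not shown to differ. Depth differs between the sexes, with larger totals in all female libraries.

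The genes of smallest p in this interaction are given as values, 5 per direction, each with an adjusted p of 0.557. They were chosen on the values of the same libraries, so a separation of the female arms follows in part from that choice. How many of all genes had separate female arms was not counted. Chrna5, a nicotinic receptor subunit, had a log2 fold change of 0.21 ± 0.19 in males and -0.73 ± 0.17 in females. In females it had 3.14, 3.47, 3.48 and 3.8 CPM with an unexposed and 2.26, 2.40, 1.92 and 1.82 CPM with an exposed mother, so the female arms did not overlap. In males it had 2.62, 2.82, 2.68 and 3.04 CPM against 3.29, 3.28, 3.97 and 2.37 CPM. Reln, the signal that Cajal-Retzius cells secrete to guide migrating neurons, had 0.08 ± 0.06 in males and -0.23 ± 0.06 in females. Plpp3, a lipid phosphatase, had 0.13 ± 0.06 and -0.20 ± 0.06, Galnt10, a glycosyltransferase, 0.13 ± 0.09 and -0.31 ± 0.08, and Rbm19, a factor of ribosome biogenesis, 0.26 ± 0.09 and -0.15 ± 0.08.

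In the opposite direction Clk4, a kinase of splicing factors, had -0.06 ± 0.07 in males and 0.40 ± 0.07 in females. Its female values were 30.3, 27.9, 36.3 and 38.1 CPM with an unexposed and 39.6, 38.8, 45.4 and 50.8 CPM with an exposed mother, again without overlap. Nrg3os, an antisense transcript at Nrg3, had 0.14 ± 0.25 and 1.80 ± 0.24, with 5.21 and 8.41 CPM in the female dual libraries and 0.878 to 2.09 CPM in the other female ones. Tmem208, a protein of the endoplasmic reticulum, had -0.34 ± 0.10 and 0.15 ± 0.09, Tmem175, a lysosomal channel, -0.28 ± 0.12 and 0.23 ± 0.11, and Tatdn1, a nuclease-like protein, -0.23 ± 0.10 and 0.34 ± 0.09.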

How the data were processed

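Total RNA of 16 cortex libraries was analysed from the raw counts per gene that the authors deposited, 1 table per library with 55359 gene IDs. Reads had been processed with Trimmomatic, STAR and featureCounts on GRCm39 (mm39), per the submitters' processing notes, with versions, annotation release, strand setting and treatment of multi-mapped reads not given in the sources used here. Symbols matched 52083 IDs in GENCODE M21 (GRCm38), which served for names and classes only.

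Counts were filtered with filterByExpr of edgeR 4.0.16 in R 4.3.3 (minimum count 10, minimum total 15, 8 groups), leaving 21543 genes, scaled by TMM and tested with glmQLFit and glmQLFTest (two-sided, 12 residual and 7.56 prior degrees of freedom), with mother exposure, father exposure and sex as additive terms. Interactions with father exposure and sex entered 1 further model each. Effects within sex, father exposure or both came from a fit of 8 group means. Standard errors are the fold change over the root of the F statistic. Shares of counts were compared by exact permutation within sex and father exposure (1296 arrangements).

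Replicates differed by more than sampling noise in all 8 groups (median squared difference in units of counting error 1.69 to 6.14, against 0.455 for noise alone). The alternatives tried were the size factors and the Wald test of DESeq2 1.42.0, no filter, a replicate term, covariates for library composition, protein-coding genes alone, subsets of libraries, other models and leaving out each library. Named genes were the 12 of smallest p per direction with a mean log2 CPM of at least 1, the same sign in 4 combinations and a symbol that is no predicted-gene name, up to 4 members of smallest p per list and 5 per direction for an interaction. Adh5, Aldh2, Malat1, Ttr, Hba-a1 and the genes hosting others were added for their role. The comparison, the members and the lists were chosen with earlier results of these data known. Effects of the mother with an unexposed and an exposed father share no library.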

Additional observations from a re-analysis of the deposited data

Results flagged for a closer look

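In 12 of 192 arms of 8 libraries examined, the highest or lowest library stood far from the others of its arm, where chance flags about 1 in 20 groups. Among the shares of counts these were gene IDs without a symbol at 17.8% in male dual replicate 2, mitochondrial messages at 0.987% in female control replicate 2, the lowest of its arm, and histone genes at 0.665% in female control replicate 1. Among genes, Ttr stood at 156 CPM in female dual replicate 2, where the next exposed library had 3.84 CPM. Neurog1 reached 2.17 CPM in replicate 1 of the female controls, and Calb2 reached 23.4 and Tubb2a 566 CPM in replicate 2. Tubb2a was lowest of the exposed arm in female dual replicate 1, at 392 CPM. Lrtm1 was at 4.78 and Nrg3os at 3.22 CPM in male control replicate 2, 1810034E14Rik at 0.832 CPM in male dual replicate 1, and Cbln2 at 28.5 CPM in female maternal replicate 2.

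The effect of mother exposure differed with father exposure, by edgeR's test of the interaction, in 409 genes. Of those named, the log2 difference was 2.21 for Lrtm1, 1.01 for Pcdhgb5, 0.90 for D10Wsu102e, 0.40 for Copg2 and 0.66 for Lrrc7. It was -0.83 for Shc1, -0.56 for Igfbp2, -1.21 for Lgals1, -1.36 for Hbb-bs and -0.59 for Igfbp4. With the female dual libraries left out, all 10 had the same sign and an adjusted p of 0.501 by edgeR. The 10 were chosen on the values of libraries that mostly remain in this fit, so the common sign follows in part from that choice.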

How the results depend on the processing

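The count of 0 genes for mother exposure held with DESeq2 size factors, a replicate block, either composition covariate, protein-coding genes alone, and in male, female or father-unexposed libraries alone. It was 3 with DESeq2, 342 without a filter on low counts, 1 (Xist) without the female control libraries, 2263 in father-exposed libraries alone, 168 as the average of 8 group means and 4 with both interactions also fitted. Leaving out single libraries gave 0 to 1, the 1 being Xist. Of the 168 genes, 122 were TEC or sense-intronic and 12 protein-coding.

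For mother by father the count of 409 became 1041 with DESeq2, 1591 without a filter, 684 with the share of unnamed IDs as covariate and 3318 without the female control libraries, and it was 0 with the TEC and sense-intronic share as covariate, among protein-coding genes and without the female dual libraries. Leaving out single libraries gave 0 to 1857. For mother by sex it was 428 without a filter and 0 to 0 without single libraries. In the strata the range without single libraries was 764 to 2874 with an exposed and 0 to 115 with an unexposed father, 399 to 1867 in females and 0 to 3 in males; with an unexposed father it was 115 and 86 without female control replicate 2 and 1. With an exposed father it was 2855 and 2874 without female control replicate 1 and 2, 847 without male paternal replicate 1, 764 without male dual replicate 1, 947 and 1239 without female paternal replicate 1 and 2 and 1043 without female dual replicate 2. In females it was 1867 without female control replicate 2, 399 and 560 without female paternal, 422 and 470 without female maternal and 526 and 506 without female dual replicate 1 and 2. Protein-coding genes alone gave 208 with an exposed father and 32 in females.

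Replicate numbers did not pair the libraries (correlations of deviations -0.335 to 0.359 over 28 pairs of groups, 6 above 0.1). With a replicate block the counts were 0 for the main effect, 322 for mother by father, 0 for mother by sex, 1850 with an exposed father and 972 in females.

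Some values changed sign. The difference in genes detected, 52.8, was -221.5 without the female dual and female paternal libraries and -136.8 to 242 without single ones. Without single libraries, the difference in the share of unnamed IDs ranged from -0.98 to 1.67 and that of histones from -0.0611 to 0.00775. The difference in the summed count kept its sign, at -2781400 to -2125700. It was -1044400 without the female dual and female paternal libraries. In father-unexposed libraries alone the log2 fold change was -0.024 for Kmt2a, -0.011 for Kmt2d, 0.089 for Rps14, 0.0097 for Atp5d, 0.0038 for Mrps24, 0.044 for Adh5, -0.013 for Malat1, 0.097 for Hba-a1 and -0.030 for Macf1. In male libraries alone it was 8.87e-05 for Adh5 and -0.061 for Malat1, and with the TEC share as covariate -0.022 for Malat1. The causes were not tested. Depth, lower in males, and 2 libraries per group limit what a single stratum can show.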

Other observations

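No member of the signalling and receptor lists not described above passed edgeR's test for mother exposure. The median log2 fold change was -0.10 for 25 Wnt genes (18 negative), where it was -0.03 without the female dual and -0.04 without the female control libraries. It was -0.05 for 17 Notch genes (12 negative), -0.00 for 15 genes of the insulin-like growth factor axis, -0.03 for 24 GABA-A and glutamate receptor genes, -0.01 for 31 axon guidance genes and 0.02 for 17 interferon response genes. Cholesterol synthesis genes had -0.05 with 17 of 20 negative, and genes of DNA replication and mitosis -0.06 with 24 of 30 negative, or 0.02 without the female dual libraries. The replication and mitosis list had medians of 0.30 in males with an unexposed father and -0.13, -0.24 and -0.18 in males with an exposed father and females with an unexposed and an exposed father. Its main-effect median was 0.03 without the female control libraries and -0.12 to 0.04 without single libraries. Its summed level was 2558 and 1419 CPM in female control replicates 1 and 2, and 1804 and 1550 CPM in the female maternal ones.

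Imprinted genes, which are expressed from 1 parental allele, had a median of 0.01 with 16 of 29 positive. With an exposed father 6 of the 29 rose and 2 fell, beside 6.65% and 2.16% of all genes tested, and for 3 and 2 of them the effect of the mother differed with father exposure in the positive and negative direction, beside 1.61% and 0.292% of all genes. Of the 15 genes of the insulin-like growth factor axis 4 fell with an exposed father, and 2 of 14 in the fit of protein-coding genes alone. In that fit 2 of 24 imprinted genes rose and 0 fell, where 1.04% of all genes in the fit rose and 0.339% fell. Oligodendrocyte lineage genes had a median of -0.05, and genes of striatum and ventral forebrain -0.03.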
